A study of Mus musculus with 10 samples.

Results

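The genes described here make glutathione, recycle it and thioredoxin, or reduce quinones: Gclc, Gclm, Gss, Gsr, Ggct, Slc7a11, Txnrd1, Srxn1, Txn1 and Nqo1. They were chosen by name, and the Ensembl identifier of each was found in the deposited table, so that all 10 of 10 were measured among 21939 genes. Slc7a11 was almost undetected and is described by its counts only, so that 9 are shown with tests. RNA of hepatocytes, enriched by low-speed centrifugation and Percoll from 10 male mice aged 8 to 9 weeks, was sequenced at day 12 after an injection of AAV8Cre, a viral vector that expresses Cre recombinase from the hepatocyte-specific TBG promoter. The control group consisted of 3 wild-type C57BL6/j mice, the Nrf2 KO group of 2 Nrf2 flox/flox mice, the p65 KO group of 2 p65 flox/flox mice, and the DKO group of 3 mice with floxed alleles of both genes. Control mice received the vector too, but carry no floxed allele, so that a floxed allele before recombination was not represented among the groups. The question was what the loss of the transcription factor Nrf2, of the NF-κB subunit p65, or of both does to these transcripts, and whether both losses together give the sum of the single changes.

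Glutathione is a tripeptide and the main small thiol of liver cells. Glutamate-cysteine ligase, a dimer of the catalytic subunit Gclc and the modifier subunit Gclm, joins glutamate to cysteine in the rate-limiting step, and glutathione synthetase, encoded by Gss, adds glycine. Slc7a11 is the transport subunit of the cystine/glutamate antiporter, glutathione reductase (Gsr) regenerates glutathione from its disulfide with NADPH, and Ggct cleaves gamma-glutamyl amino acids that arise when glutathione is degraded. Thioredoxin (Txn1) reduces protein disulfides and is itself reduced by the selenoprotein Txnrd1, while sulfiredoxin (Srxn1) repairs hyperoxidized peroxiredoxins and Nqo1 reduces quinones with NAD(P)H. Nrf2, which Keap1 holds at low levels in unstressed cells, binds antioxidant response elements, and several of these genes are textbook targets of it. NF-κB dimers with p65 bind κB motifs and are best known for the control of inflammatory and survival genes.

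Promoter sequences are shown because these genes are known for Nrf2 binding sites, and because the genes differed in how they responded to each deletion. RefSeq windows of the GRCm38.p6 build, from 250 bases before to 50 after a transcription start, were at hand for 8 of the 10 genes and not for Gclc and Gsr. The core letters of the antioxidant response element are TGACNNNGC or TGAGNNNGC on either strand. They were present in a window of 5 of these 8 genes (Srxn1, Txnrd1, Gclm, Ggct and Slc7a11). The 8 genes have 10 windows in all, and 5 of these 10 held a match, beside 27.8% of all 32851 windows. No window of the 8 genes held a κB motif, which was found in 4.51% of all windows. Sequences are given for Srxn1, Txnrd1 and Gclm, which passed as lower in DKO and hold a match. Ggct, which also holds a match, passed as lower in p65 KO alone. Nqo1 passed as lower in DKO and holds none in this window. Below, the 180 bases before the start are given 5′ to 3′ along the gene, with each antioxidant response element match in capitals. Matches after the start, which the windows of Srxn1 and Ggct also hold, are not printed.
Srxn1, chr2:152105344-152105523, plus strand: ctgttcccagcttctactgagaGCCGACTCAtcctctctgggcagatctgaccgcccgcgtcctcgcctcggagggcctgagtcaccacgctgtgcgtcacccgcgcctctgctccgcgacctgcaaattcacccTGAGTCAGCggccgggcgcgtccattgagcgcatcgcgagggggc
Txnrd1, chr10:82859026-82859205, plus strand: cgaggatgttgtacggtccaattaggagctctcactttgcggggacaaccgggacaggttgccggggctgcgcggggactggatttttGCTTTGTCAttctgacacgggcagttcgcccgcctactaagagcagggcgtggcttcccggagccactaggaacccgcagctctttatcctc
Gclm, chr3:122245377-122245556, plus strand: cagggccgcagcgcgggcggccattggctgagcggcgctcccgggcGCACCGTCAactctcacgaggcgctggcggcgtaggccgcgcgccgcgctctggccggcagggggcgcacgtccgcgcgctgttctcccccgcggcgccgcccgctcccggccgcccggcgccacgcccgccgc
Ggct, chr6:54992868-54993047, minus strand: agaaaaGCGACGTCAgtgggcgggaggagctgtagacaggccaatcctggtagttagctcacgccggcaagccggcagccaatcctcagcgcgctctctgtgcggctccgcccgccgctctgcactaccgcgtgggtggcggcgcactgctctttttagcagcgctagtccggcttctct
Nqo1, chr8:107403206-107403385, minus strand: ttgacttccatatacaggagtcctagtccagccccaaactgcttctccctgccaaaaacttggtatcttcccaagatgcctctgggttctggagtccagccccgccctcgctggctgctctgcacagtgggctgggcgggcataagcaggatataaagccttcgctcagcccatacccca

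In Srxn1 the match TGAGTCAGC on the plus strand ends 37 bases before the start, and it overlaps the AP-1 motif TGACTCA, read on the other strand. That AP-1 motif occurred at 2 places in the Srxn1 window, in the windows of none of the other 7 genes, and in 5.2% of all windows. The printed matches of Txnrd1 (TGACAAAGC), Gclm (TGACGGTGC) and Ggct (TGACGTCGC) lie on the opposite strand. Txnrd1 has 3 windows in the table and the match was in 1 of them. A match is a run of letters and not a measured binding site. From published maps of Nrf2 binding in mouse liver (ChIP-seq), the paper counts Srxn1, Nqo1 and Gclc among direct Nrf2 targets.

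The libraries held 33707165 to 49897382 estimated counts. Each count was divided by a TMM scaling factor, which is set by the bulk of genes, to give a normalized count. The 6 hepatocyte marker genes summed to between 3270680 and 5251870 normalized counts per library. Such sums show that hepatocyte transcripts were abundant, and they do not measure how pure the cells were. The floxed genes themselves did not check the genotypes, since a gene-level count includes the exons that recombination leaves in place: Nfe2l2, the gene for Nrf2, had 1990 to 2318 normalized counts in control, 4739 to 5005 in the libraries labelled Nrf2 KO and 3434 to 5240 in those labelled DKO, with log2 fold changes of 1.21 (adjusted p = 0.00488, edgeR, and 0.0816 without Nrf2 KO 2) and 1.02 (adjusted p = 0.00347). The whole-gene count thus showed no loss of the transcript, and it cannot show whether recombination took place. The paper reports efficient deletion of both floxed genes in hepatocytes after injection of the vector, by quantitative PCR and Western blot. Group names below stand for libraries so labelled. Rela, the gene for p65, differed from control by a log2 fold change of -0.07 in p65 KO (adjusted p = 0.765), and Keap1 by at most -0.07 in DKO (adjusted p = 0.747).

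Markers of other liver cells differed between the genotypes. All 10 Kupffer cell markers passed the test as higher in p65 KO, with sums of 3995 to 5452 normalized counts against 331 to 859 in control, 231 to 701 in Nrf2 KO and 1484 to 2578 in DKO. The same held for 6 of 6 markers of sinusoidal endothelium, with sums of 2523 to 3509 in p65 KO against 525 to 1081 in control, 674 to 1242 in Nrf2 KO and 1310 to 1847 in DKO. Of 7 stellate cell markers, 4 passed, with sums of 1539 to 1566 in p65 KO against 145 to 335 in control, 133 to 209 in Nrf2 KO and 257 to 699 in DKO. Neutrophil markers summed to 2.80 to 6.88 in control, 6.92 to 8.08 in Nrf2 KO, 11.3 to 53.8 in p65 KO and 8.01 to 35.8 in DKO, with Csf3r higher in p65 KO by the test and Ly6g at 0 in every library. T and NK cell markers summed to 14 to 36.4 in control, 60.6 to 62.3 in Nrf2 KO, 31.5 to 34.0 in p65 KO and 66.4 to 159 in DKO, where Cd4 passed as higher than in control and in p65 KO. Of these 7 markers, 5 were at 0 in all control libraries and 4 in both Nrf2 KO libraries, and none passed in Nrf2 KO. Cholangiocyte markers summed to 268 to 392 in control, 151 to 196 in Nrf2 KO, 347 to 444 in p65 KO and 197 to 350 in DKO. Erythroid markers summed to 3362 to 4675, 3650 to 3783, 3133 to 3516 and 4730 to 5605 in the same order, and B cell markers to at most 9.14 in any library. The part of these cells in the results on the 3 knockouts was not tested, and in a bulk sample fewer cells of a type cannot be told apart from less RNA per cell.

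In control hepatocytes, Txn1 had the highest level of the 10 transcripts, at 244 ± 15.3 CPM per kilobase of the canonical transcript (SD, n = 3), where CPM are counts scaled to library size. Gclc came next at 174 ± 34.2, and its 3 libraries (141 to 209) did not overlap those of Txn1 (232 to 261). Txnrd1 followed at 43.8 ± 6.05, Gclm at 34.6 ± 2.82, Gss at 33.2 ± 9.28 and Gsr at 30.5 ± 4.78, and each neighbour in this order overlapped the next. Srxn1 stood at 7.11 ± 1.20. Nqo1 (1.88 ± 0.202) and Ggct (1.53 ± 0.219) were low and overlapped. These are levels per length, whereas all values below are normalized counts, which compare libraries and not genes.

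**Figure D1:**
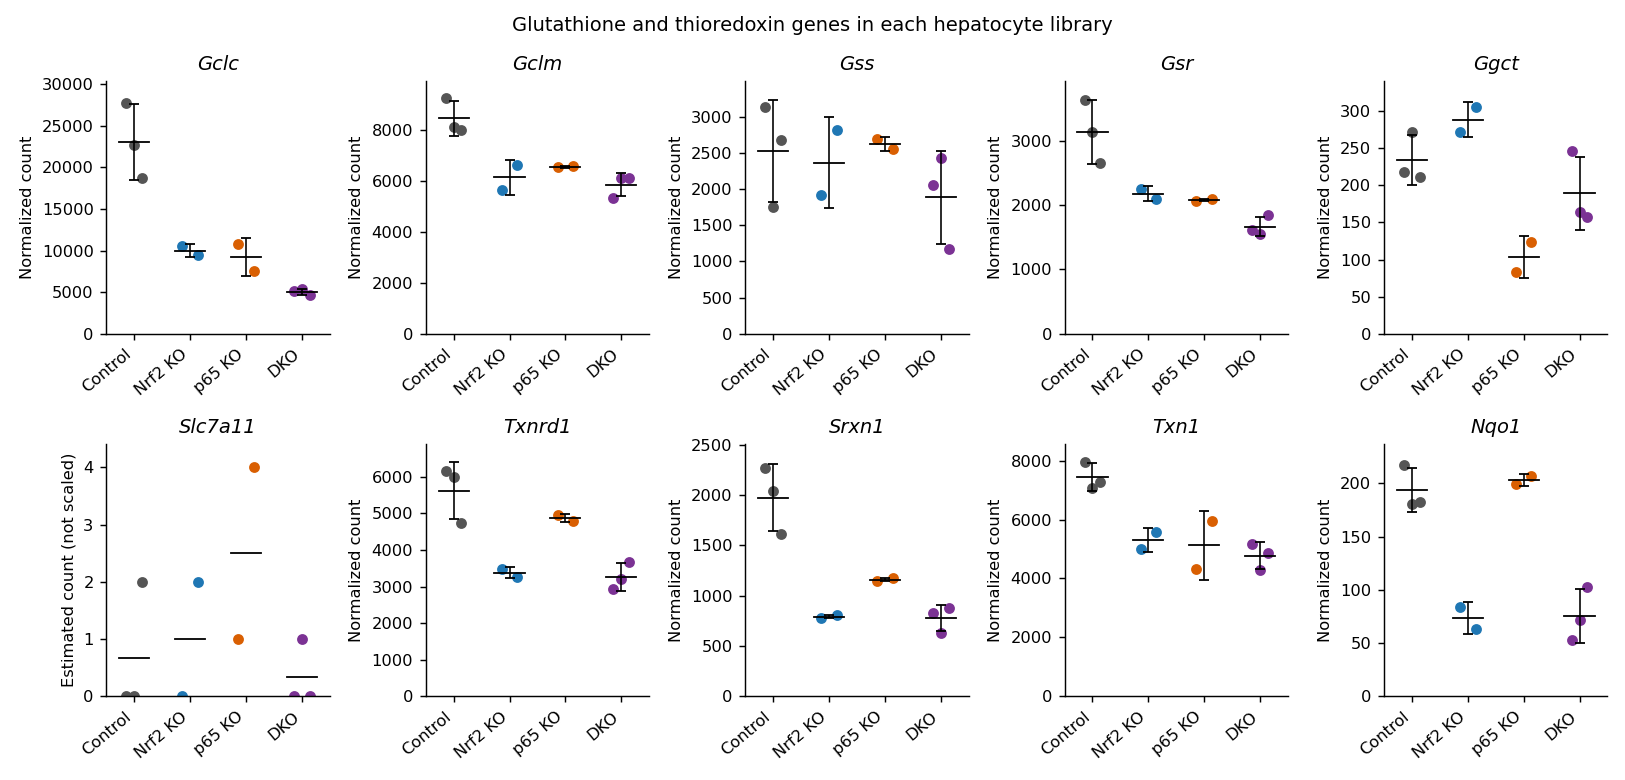
Each point is 1 library, the horizontal lines are group means and the bars are SDs (n = 3 control, 2 Nrf2 KO, 2 p65 KO, 3 DKO), on vertical axes that start at 0. The axes give normalized counts except for Slc7a11, where estimated counts as deposited are drawn without SD. Gclc steps down from 18703 to 27771 in control to 4600 to 5326 in DKO, whereas Nqo1 is low in Nrf2 KO and DKO but not in p65 KO.

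Across the set, lower transcripts outnumbered higher ones in each knockout. By edgeR's quasi-likelihood test with a Benjamini-Hochberg adjusted p of at most 0.05, 3 of the 10 genes were lower in Nrf2 KO than in control (Gclc, Txnrd1 and Srxn1), where 0.594% of the 13641 genes tested were called lower. In p65 KO, 5 were lower (Gclc, Gsr, Ggct, Srxn1 and Txn1), against 6.77% of all genes tested. In DKO, 7 were lower (Gclc, Gclm, Gsr, Txnrd1, Srxn1, Txn1 and Nqo1), against 2.84% of all genes tested. None of the 10 passed as higher in these comparisons by edgeR, DESeq2 or limma. The median log2 fold change of the 9 genes without Slc7a11 was -0.53 in Nrf2 KO, then -0.54 in p65 KO, and -0.78 for DKO, beside medians over all genes tested of 0.0018, 0.0009 and 0.025. With the fold limit of the study added, a log2 fold change of -1 or lower, 2 genes passed in Nrf2 KO (Gclc and Srxn1), 2 for p65 KO (Gclc and Ggct) and 3 for DKO (Gclc, Srxn1 and Nqo1), where 0.440%, 1.54% and 1.02% of all genes passed. The 3 comparisons share the control libraries.

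Small groups limited these calls. In Nrf2 KO, 0 genes passed without either Nrf2 KO library and 1 (Srxn1) without control 1 or control 2. In p65 KO, 1 (Gclc) passed without p65 KO 1, 3 without p65 KO 2 and 2 without control 1, and in DKO 4 passed without control 1. Library scaling mattered in p65 KO: with equal totals the median gene shifted by a log2 value of 0.18, 355 rather than 923 genes were lower (2.6% of those tested, 17.9% rather than 45.4% of all that passed), and 3 of the 10 genes passed (Gclc, Ggct and Srxn1). In DKO, equal totals gave 4.68% of all genes lower (72.6% rather than 52.1% of those that passed) and the same 7 of the 10.

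**Figure D2:**
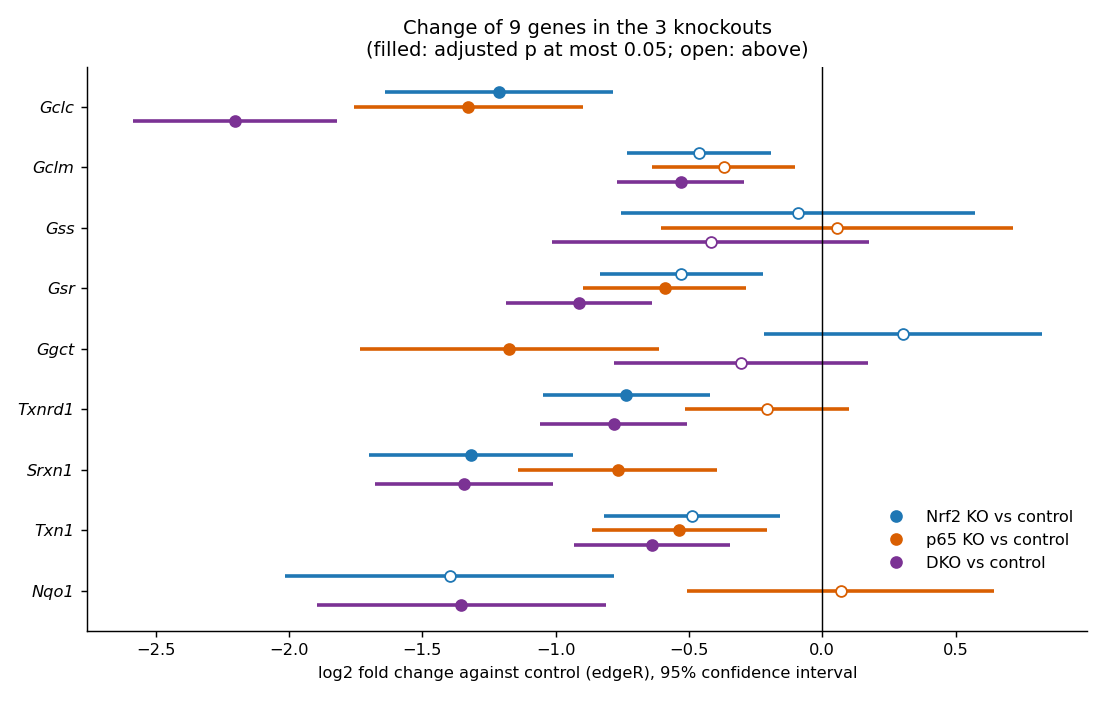
Points are log2 fold changes against control from edgeR for 9 genes in Nrf2 KO, p65 KO and DKO, and lines are 95% confidence intervals, with filled points for an adjusted p of at most 0.05. Gclc has filled points in all 3 knockouts (-1.21, -1.33 and -2.20), Ggct in p65 KO alone (-1.17), and the p65 KO points of Txnrd1 and Nqo1 lie near 0 (-0.21 and 0.07).

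Gclc, the catalytic subunit of the ligase (chr9:77661797-77701770, GRCm39), showed the largest drop of the set in DKO. Control libraries held 27771, 22723 and 18703 normalized counts, Nrf2 KO 10523 and 9409, p65 KO 10823 and 7563, and DKO 5111, 5326 and 4600. Every knockout library was below every control library, and the DKO libraries were below all others. Gclc fell 2.31-fold in Nrf2 KO (log2 fold change -1.21 ± 0.19 (SE), adjusted p = 0.0179) and 2.51-fold in p65 KO (-1.33 ± 0.19, adjusted p = 0.00281). In DKO it fell 4.60-fold (-2.20 ± 0.17, adjusted p = 0.00012), to 21.7% of the control mean. With 1 library left out, the adjusted p for Gclc stayed at or below 0.0222 in p65 KO and 0.00145 in DKO. In Nrf2 KO it rose above 0.05 without control 1, control 2, Nrf2 KO 1 or Nrf2 KO 2, to at most 0.298, while the log2 fold change stayed between -1.35 and -1.06.

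Gclm, the modifier subunit (chr3:122039126-122065061, GRCm39), moved much less. Its normalized counts were 9263, 8137 and 8005 in control, 5663 and 6626 in Nrf2 KO, 6538 and 6579 in p65 KO, and 5326, 6119 and 6137 in DKO. No knockout library reached the control range, and the 3 knockouts lay close together. It fell 1.44-fold in DKO (log2 fold change -0.53 ± 0.11, adjusted p = 0.0211), a call that was lost without control 1 or DKO 1 (adjusted p up to 0.082) and when only these 2 genotypes were fitted (0.0506). In Nrf2 KO and p65 KO the log2 fold changes were -0.46 ± 0.12 and -0.37 ± 0.12, and neither passed by edgeR (adjusted p = 0.175 and 0.0645). Both passed with DESeq2's Wald test (adjusted p = 0.0148 and 0.0348), and the p65 KO value with limma (adjusted p = 0.0495).

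The balance of both subunits can be read within a library, a measure picked after the values had been seen. There, the ratio of Gclc to Gclm counts was 3.00, 2.79 and 2.34 in control, 1.86 and 1.42 in Nrf2 KO, 1.66 and 1.15 in p65 KO, and 0.960, 0.871 and 0.750 in DKO. Scaling factors cancel in this ratio, and it does not compare molecules because the transcripts differ in length. The mean was 2.71 ± 0.339 for control, 1.64 ± 0.310 for Nrf2 KO, 1.40 ± 0.358 for p65 KO and 0.860 ± 0.105 for DKO. No knockout library overlapped control and no DKO library overlapped the single knockouts, but an exact two-sided permutation test gave p = 0.1 for each knockout against control, the smallest p these group sizes allow.

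**Figure D3:**
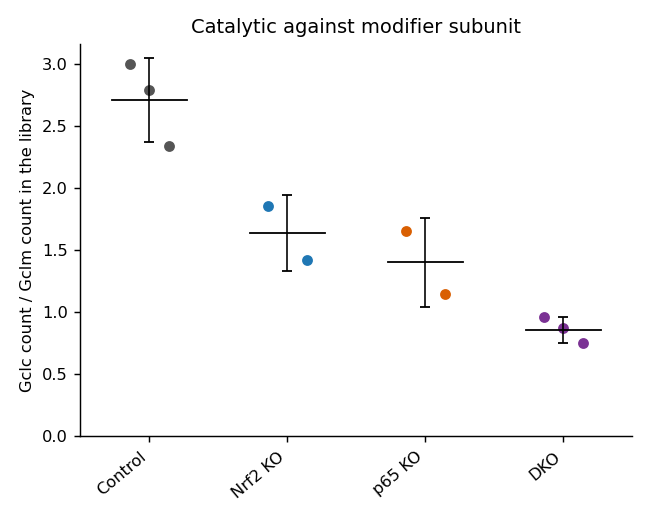
Points are the ratio of Gclc to Gclm counts in each library, on an axis from 0, with group means as lines and SDs as bars. The ratio runs from 2.34 to 3.00 in control and from 0.750 to 0.960 in DKO, with the single knockouts between 1.15 and 1.86.

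The gene for the later step of synthesis did not pass in any knockout. Gss, which encodes glutathione synthetase (chr2:155405096-155455505, GRCm39), had 3134, 1752 and 2681 normalized counts in control, 1921 and 2814 in Nrf2 KO, 2688 and 2556 in p65 KO, and 2059, 2428 and 1173 in DKO. The control and DKO libraries each spread widely and all groups overlapped control. Its log2 fold changes were -0.09 in Nrf2 KO (95% interval -0.75 to 0.57), 0.06 in p65 KO (-0.60 to 0.72) and -0.42 in DKO (-1.01 to 0.18), with adjusted p = 0.973, 0.92 and 0.383. Changes of more than 1.5-fold in either direction lie within these intervals.

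Slc7a11, the cystine transporter subunit, was at the limit of detection. Its estimated counts as deposited were 0, 0 and 2 in control, 0 and 2 in Nrf2 KO, 1 and 4 in p65 KO, and 0, 1 and 0 in DKO. The sum of 10 counts is exactly the minimum for a gene to be tested, and only 1 library exceeded the floor of 3 counts, so no fold change is given and no difference was detectable at this depth. Its partner chain Slc3a2 had 881 to 912 normalized counts in control and did not pass in Nrf2 KO or p65 KO (log2 fold changes 0.05 and -0.04, adjusted p = 0.974 and 0.896).

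Gsr, glutathione reductase (chr8:34142551-34188192, GRCm39), had 3635, 3131 and 2650 normalized counts in control, 2256 and 2095 in Nrf2 KO, 2070 and 2095 in p65 KO, and 1615, 1546 and 1840 in DKO. All knockout libraries were below control, and the DKO libraries were again the lowest. It fell 1.51-fold in p65 KO (log2 fold change -0.59 ± 0.14, adjusted p = 0.0198) and 1.88-fold in DKO (-0.91 ± 0.12, adjusted p = 0.00304). In Nrf2 KO the log2 fold change was -0.53 ± 0.14 (adjusted p = 0.173 by edgeR and 0.0261 with DESeq2's Wald test), about as large as in p65 KO, and whether it differed between the 2 knockouts was not tested. The p65 KO call was lost without control 1, p65 KO 1 or p65 KO 2 (adjusted p up to 0.122) and with equal totals.

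Ggct, the gamma-glutamylcyclotransferase (chr6:54959246-54969942, GRCm39), had a pattern of its own. Its normalized counts were 219, 272 and 211 in control, 272 and 306 in Nrf2 KO, 83.3 and 124 in p65 KO, and 246, 164 and 158 in DKO. The p65 KO libraries were below all others, and the Nrf2 KO libraries were near or above the top of the control range. Ggct fell 2.26-fold in p65 KO (log2 fold change -1.17 ± 0.25, adjusted p = 0.0147), which was lost without p65 KO 1 (adjusted p = 0.129). The log2 fold change was 0.30 ± 0.24 in Nrf2 KO (adjusted p = 0.787) and -0.30 ± 0.22 in DKO (adjusted p = 0.429). The promoter match printed above for Ggct thus belongs to a gene that did not pass as lower in Nrf2 KO.

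Among the thioredoxin genes, Txnrd1, thioredoxin reductase (chr10:82669785-82733546, GRCm39), was low in both groups with floxed Nrf2. It had 6150, 5980 and 4728 normalized counts in control, 3479 and 3274 in Nrf2 KO, 4957 and 4787 in p65 KO, and 2920, 3204 and 3682 in DKO. The p65 KO libraries lay within the control range, and the Nrf2 KO libraries within the DKO range. Txnrd1 fell 1.66-fold in Nrf2 KO (log2 fold change -0.73 ± 0.14, adjusted p = 0.0469) and 1.72-fold in DKO (-0.78 ± 0.12, adjusted p = 0.00705), whereas the log2 fold change in p65 KO was -0.21 ± 0.14 (adjusted p = 0.339). The Nrf2 KO call was near the threshold and held in 2 of 10 fits with 1 library left out, those without control 3 or DKO 3, with adjusted p up to 0.498 in the others, and it was lost with equal totals, with upper-quartile scaling and when only the 2 genotypes were fitted.

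Srxn1, sulfiredoxin (chr2:151947436-151957687, GRCm39), was lower in all 3 knockouts. Its normalized counts were 2269, 2040 and 1613 in control, 780 and 806 in Nrf2 KO, 1148 and 1172 in p65 KO, and 832, 628 and 875 in DKO. Every knockout library was below control, the p65 KO libraries lay in between, and the Nrf2 KO libraries fell inside the DKO range. Srxn1 fell 2.49-fold in Nrf2 KO (log2 fold change -1.32 ± 0.17, adjusted p = 0.00597), 1.70-fold in p65 KO (-0.77 ± 0.17, adjusted p = 0.0157) and 2.53-fold in DKO (-1.34 ± 0.15, adjusted p = 0.00133). The Nrf2 KO call was lost without either Nrf2 KO library (adjusted p up to 0.113), the p65 KO call without control 1 or either p65 KO library (up to 0.106), and the DKO call in no such fit.

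Txn1, thioredoxin (chr4:57934208-57956424, GRCm39), had 7962, 7080 and 7266 normalized counts in control, 5010 and 5585 in Nrf2 KO, 4307 and 5955 in p65 KO, and 5185, 4294 and 4857 in DKO. No knockout library reached control, and the 3 knockouts overlapped each other. Txn1 fell 1.45-fold in p65 KO (log2 fold change -0.54 ± 0.15, adjusted p = 0.037) and 1.56-fold in DKO (-0.64 ± 0.13, adjusted p = 0.0221), with a log2 fold change of -0.49 ± 0.15 in Nrf2 KO (adjusted p = 0.255). The p65 KO call held in 4 of 10 fits with 1 library left out (without p65 KO 2 or any DKO library) and was lost with equal totals, and the DKO call was lost without control 1, control 2 or DKO 2 (adjusted p up to 0.0854). Of the 31-base words in Txn1 transcripts, 3.11% also occur in transcripts of other genes, mostly a pseudogene, so a share of its reads could be split by the quantification. For the other genes this share ran from 0% in Txnrd1 to 7.7% in Gsr and 10% in Gclm.

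Nqo1, the quinone reductase (chr8:108113835-108129934, GRCm39), also had p65 KO libraries within the control range. Its normalized counts were 218, 181 and 182 in control, 84.0 and 63.0 in Nrf2 KO, 199 and 207 in p65 KO, and 52.6, 71.8 and 103 in DKO. The Nrf2 KO and DKO libraries were below every control and p65 KO library. Nqo1 fell 2.55-fold in DKO (log2 fold change -1.35 ± 0.25, adjusted p = 0.0126), which was lost without control 1 (adjusted p = 0.0565). In Nrf2 KO the log2 fold change was as large (-1.40 ± 0.28) but the adjusted p was 0.0561, and it passed with DESeq2's test. In p65 KO it was 0.07 ± 0.26 (adjusted p = 0.882), with an interval of -0.51 to 0.65. No match of the antioxidant response element letters is in the 300 bases shown in part above for Nqo1, which says only that these letters are not in that window. By quantitative PCR, the paper reports strongly lower Gclc and Nqo1 in hepatocytes of Nrf2 KO and DKO mice.

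DKO was then set against each single knockout. Against p65 KO, Gclc (log2 fold change -0.87 ± 0.18, adjusted p = 0.0299), Txnrd1 (-0.58 ± 0.14, adjusted p = 0.0435) and Nqo1 (-1.42 ± 0.27, adjusted p = 0.0202) were lower in DKO, 3 of the 10, where 2.06% of all genes tested were lower. Srxn1 (-0.58 ± 0.17, adjusted p = 0.0777) and Ggct (0.87 ± 0.25, adjusted p = 0.0804) did not pass by edgeR. Both passed with DESeq2's Wald test (adjusted p = 0.0219 for Srxn1 and 0.0239 for Ggct). Against Nrf2 KO, Gclc was lower in DKO (-0.99 ± 0.18, adjusted p = 0.046), 1 of the 10, where 0.191% of all genes tested were lower. For Txnrd1, Srxn1 and Nqo1 the log2 differences between DKO and Nrf2 KO were -0.05 (95% interval -0.35 to 0.26), -0.03 (-0.40 to 0.34) and 0.04 (-0.57 to 0.66), and for Gsr and Ggct -0.38 (-0.68 to -0.08, adjusted p = 0.232) and -0.61 (-1.13 to -0.09, adjusted p = 0.273).

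These calls rested on few libraries. Against p65 KO, 0 of the 10 passed without p65 KO 1 or DKO 1 and 1 (Gclc) without p65 KO 2, and 0 passed by edgeR when only the 2 genotypes were fitted (6 at an unadjusted p under 0.05). The Gclc call was lost without DKO 3 too (adjusted p up to 0.205), and that of Txnrd1 held in 2 of 10 fits, those without control 3 or DKO 3. For the fit of 2 genotypes, the share of all genes at an unadjusted p under 0.05 was not counted. With equal totals, which shifted the median gene by a log2 value of -0.27 between DKO and p65 KO, 6 passed as lower (Gclc, Gclm, Gsr, Txnrd1, Srxn1 and Nqo1), but so did 11.9% of all genes (92.3% rather than 50.1% of those that passed). Against Nrf2 KO, the Gclc call was lost without control 2, either Nrf2 KO library or any DKO library (adjusted p up to 0.263), with log2 differences from -1.07 to -0.91, and with DESeq2 size factors, upper-quartile scaling or a filter on the mean count.

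Additivity was examined as the difference between the DKO change and the sum of the single changes on the log2 scale, where 0 means that fold changes multiply. The single changes of Gclc summed to -2.54 and the DKO change was -2.20, a difference of 0.34 (95% interval -0.25 to 0.92, adjusted p = 0.604). For Nqo1 the sum was -1.33 and the DKO change -1.35, and for Txnrd1 -0.94 and -0.78. Gsr had a sum of -1.12 against -0.91, Gclm -0.83 against -0.53, and Txn1 -1.02 against -0.64. In these 5 genes the 95% intervals of the difference included 0. Srxn1 departed most among genes that passed in both single knockouts: the sum was -2.08 and the DKO change -1.34, a difference of 0.74 (95% interval 0.22 to 1.27).

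By edgeR, 0 of the 10 genes passed for this difference at an adjusted p of 0.05, where 0.469% of all genes tested did, in either direction. Srxn1 was the only one at an unadjusted p under 0.05 (adjusted p = 0.224), and DESeq2 and limma called 0 of the 10 as well. The interval of Gclc (-0.25 to 0.92) leaves room for a DKO drop as large as the single changes multiply to. Somewhat larger drops, and drops up to 0.92 smaller on the log2 scale, also lie within it. Ggct (0.57, interval -0.20 to 1.33) and Gss (-0.38, interval -1.32 to 0.55) had the widest intervals besides Nqo1 (-0.87 to 0.82). With equal totals the median gene of this difference moved by -0.27, and the differences of Gsr and Txnrd1 changed sign, to -0.07 and -0.11.

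**Figure D4:**
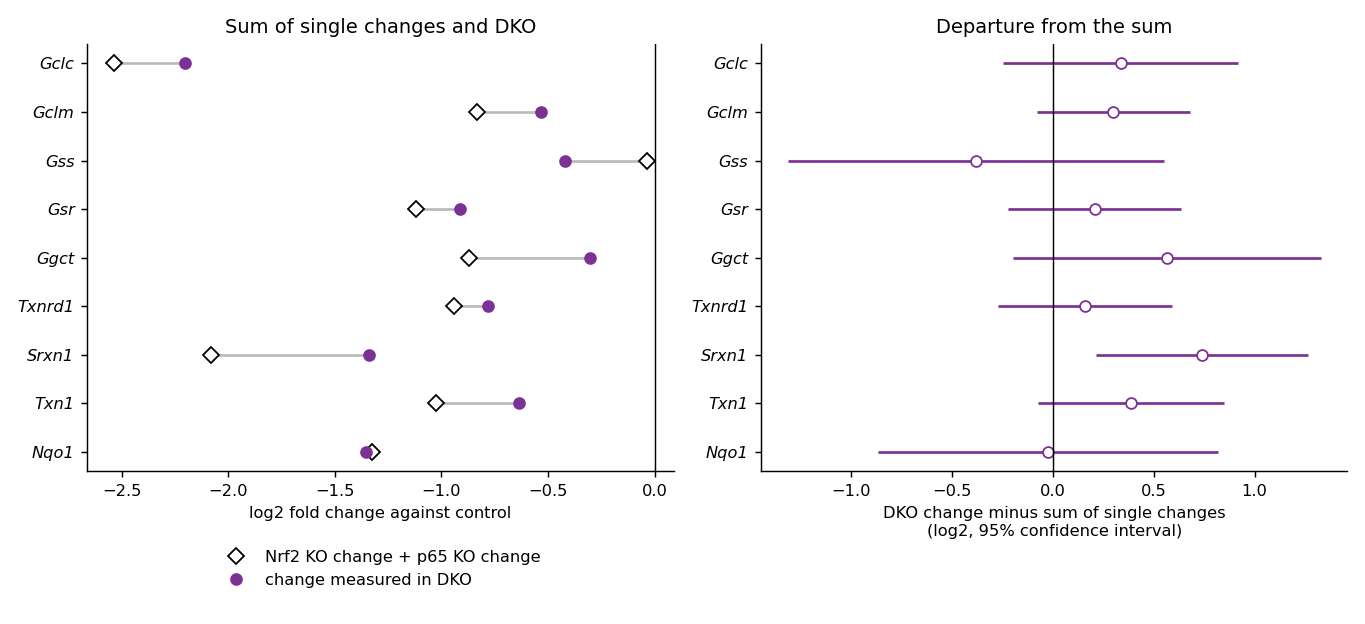
On the left, diamonds are the sums of the Nrf2 KO and p65 KO changes and circles the changes measured in DKO, in log2 fold change against control for 9 genes. On the right, points are DKO changes minus these sums with 95% confidence intervals. Srxn1 has the one interval that lies above 0 (0.22 to 1.27), and the diamond and circle of Nqo1 nearly coincide (-1.33 and -1.35).

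Over the 10 libraries, the log2 normalized counts of Gclc ran most closely with those of Gsr among the other 8 genes (Pearson's r = 0.958), and those of Txnrd1 with Nqo1 (r = 0.944). Srxn1 was closest to Txnrd1 (r = 0.930), Gclm to Srxn1 (r = 0.902) and Txn1 to Gsr (r = 0.859). Gss and Ggct had no close partner, with highest values of 0.430 (to Gclc) and 0.443 (to Txn1). Among 10176 genes outside the set whose normalized counts averaged 50 or more, the 5 closest to Gclc were Ctnnal1 (r = 0.965), Zswim4 (0.955), Hsd17b11 (0.955), Ankrd11 (0.944) and Clint1 (0.942). They changed less than Gclc: in DKO the log2 fold changes were -0.78 for Ctnnal1 (adjusted p = 0.045), -0.65 for Zswim4 (0.0165), -0.62 for Hsd17b11 (0.00527) and -0.68 for Clint1 (0.00584), and -0.34 for Ankrd11 (0.0545). These correlations describe libraries that share genotype, and the points within a group are mice of 1 genotype.

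The other genes of these pathways were counted by list. Of 72 genes in 11 lists (cysteine supply and use, glutathione breakdown and transport, glutaredoxins, the thioredoxin system, peroxiredoxins, glutathione peroxidases, quinone reduction, NADPH supply and selenium handling), 68 were tested. In Nrf2 KO, 0 passed by edgeR, with 16 at an unadjusted p under 0.05, and DESeq2 called 3 and limma 1. The share of all genes at that unadjusted p was not counted. In p65 KO, 6 were lower and 4 higher by edgeR, where 6.77% and 8.13% of all genes were, and DESeq2 called 13 and limma 10. In DKO, 5 were lower and 1 higher by edgeR, where 2.84% and 2.61% were, and DESeq2 called 14 and limma 6. Between DKO and p65 KO, 2 were lower and 2 higher by edgeR, where 2.06% and 2.05% were, and DESeq2 called 10, limma 4 and edgeR with equal totals 10. Of all 13641 genes tested, DESeq2 called 320 in Nrf2 KO, 2695 in p65 KO, 1446 in DKO and 1291 between DKO and p65 KO, in either direction. With limma these numbers were 104, 2219, 814 and 604, and equal totals gave 1753 between DKO and p65 KO. The median log2 fold change of the 68 was -0.05, -0.03 and -0.06 in Nrf2 KO, p65 KO and DKO, beside -0.53, -0.54 and -0.78 for the 9 genes of the set. Leaving out 1 library ended most of these calls: of the values below, those of Csad in DKO passed in 10 of 10 such fits, those of Txnrd2 and Nnt in p65 KO, of Gnmt and Gpx4 in DKO and of Txnip between DKO and p65 KO in 9, and those of Me1 in DKO and Txnrd2 between DKO and p65 KO in 1.

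Csad, which diverts cysteine to taurine, passed in 4 comparisons. Control libraries held 23913, 20620 and 17220 normalized counts, Nrf2 KO 15595 and 13003, p65 KO 10799 and 13158, and DKO 6815, 5177 and 7807. DKO libraries were below all others and control libraries above all others. Csad fell 1.72-fold in p65 KO (log2 fold change -0.78 ± 0.20, adjusted p = 0.0259) and 3.12-fold in DKO (-1.64 ± 0.18, adjusted p = 0.00105), and it was lower in DKO than in p65 KO (-0.86 ± 0.19, adjusted p = 0.0347) and Nrf2 KO (-1.12 ± 0.19, adjusted p = 0.0306). The p65 KO call was lost with equal totals and without control 1, control 2 or either p65 KO library (adjusted p up to 0.194). With 1 library left out, the difference between DKO and p65 KO passed in 5 of 10 fits (adjusted p up to 0.171) and that between DKO and Nrf2 KO in 6 of 10 (adjusted p up to 0.222), and neither passed when only the 2 genotypes were fitted or with the replicate block.

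In cysteine supply, Cbs, which commits homocysteine to cysteine synthesis, fell in p65 KO (log2 fold change -0.53, adjusted p = 0.0307) and was higher in DKO than in p65 KO (0.72, adjusted p = 0.0233), both lost with equal totals. With 1 library left out, these Cbs calls held in 6 and 7 of 10 fits. Mat1a, which makes S-adenosylmethionine, rose in p65 KO (0.60, adjusted p = 0.0485). That call was lost with limma and held in 2 of 10 fits with 1 library left out. Control 1, control 2 and control 3 were among the libraries whose loss ended it. Mean Mat1a was 138% of control in Nrf2 KO and 154% in DKO, and neither passed. Gnmt, which consumes S-adenosylmethionine, rose in DKO (0.65, adjusted p = 0.0121). Mean Gnmt was 157% of control in DKO and 132% in Nrf2 KO, which did not pass. The exporter Abcc1 passed as higher in p65 KO (adjusted p = 0.0478) from estimated counts of 24 and 12 against 2, 2 and 4 in control. The Abcc1 call held in 2 of 10 fits with 1 library left out, and leaving out control 1, control 2 or control 3 ended it. Lap3, a peptidase in the breakdown list, fell in p65 KO (-0.35, adjusted p = 0.043). This was lost under each other scaling tried in edgeR and without control 1, control 2 or control 3. The Lap3 call held in 3 of 10 fits with 1 library left out.

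In the thioredoxin system, Txnip, which binds and inhibits thioredoxin, had 10335, 6409 and 7190 normalized counts in control, 8838 and 6243 in Nrf2 KO, 18524 and 14110 in p65 KO, and 3133, 6223 and 3665 in DKO. It was high in p65 KO and low in DKO, without overlap between them. Txnip rose in p65 KO (log2 fold change 1.03 ± 0.29, adjusted p = 0.0385, up to 0.243 without control 2, control 3 or either p65 KO library) and was lower in DKO than in p65 KO (-1.91 ± 0.29, adjusted p = 0.00928). The mitochondrial reductase Txnrd2 fell in p65 KO (-0.65, adjusted p = 0.00968), where Txnrd1 did not pass, and was higher in DKO than in p65 KO (0.53, adjusted p = 0.0438).

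Among enzymes that use these cofactors, Gpx4, which reduces lipid peroxides with glutathione, fell in p65 KO (log2 fold change -0.60, adjusted p = 0.0159) and DKO (-0.65, adjusted p = 0.012). Its p65 KO call held in 8 of 10 fits with 1 library left out. Prdx1, a cytosolic peroxiredoxin, fell in DKO (-0.61, adjusted p = 0.03), as did the aldehyde reductase Akr1a1 (-0.53, adjusted p = 0.0294), and Akr7a5 fell in p65 KO (-0.44, adjusted p = 0.0195). The Prdx1 call was lost without any control library, DKO 1 or DKO 2, and the Akr1a1 call without control 1, control 3 or any DKO library. The Akr7a5 call held in 6 of 10 fits with 1 library left out. It was lost without control 1 or control 3, and with equal totals. All 3 calls were lost when only the 2 genotypes compared were fitted. Me1, a cytosolic source of NADPH, fell in DKO (-1.39, adjusted p = 0.0481), from 13605 to 18116 normalized counts in control to 2901 to 9436. In Nrf2 KO no gene of these lists passed by edgeR. Group means of Gpx4, Me1, Prdx1, Akr1a1 and Akr7a5 there were 64.1%, 46.1%, 73.1%, 73.5% and 81.2% of control. In the same order, they were 66.0%, 54.9%, 74.5%, 83.0% and 74.0% in p65 KO. In DKO they were 63.6%, 38.1%, 65.5%, 69.3% and 80.7%. Nnt, a mitochondrial source of NADPH in which the C57BL/6J strain carries a deletion, had 703, 767 and 710 normalized counts in control, 1046 and 536 in Nrf2 KO, 2581 and 1941 in p65 KO, and 1333, 698 and 1174 in DKO. Nnt was higher in p65 KO than in control (1.64 ± 0.29, adjusted p = 0.00614), a call lost without p65 KO 1. The paper gives all these mice the same background, and the part of strain background in the p65 KO values was not tested.

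**Figure D5:**
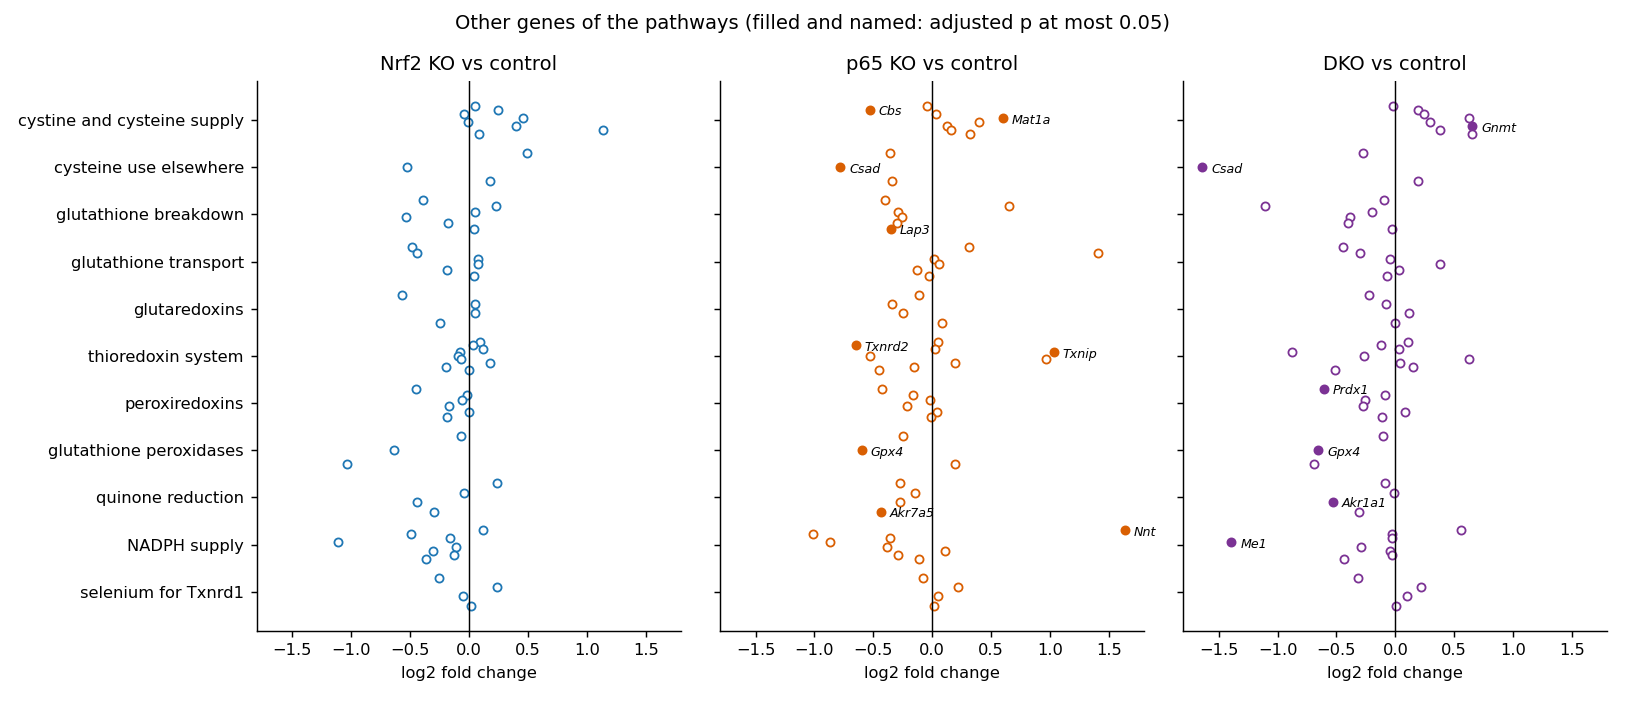
Points are log2 fold changes against control (edgeR) of 61 other pathway genes whose normalized counts averaged 10 or more, by list and knockout. Filled and named points have an adjusted p of at most 0.05: none in Nrf2 KO, 9 in p65 KO beside the low-count Abcc1, which is not drawn, and 6 in DKO, with Csad (-1.64) and Me1 (-1.39) farthest to the left.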

How the data were processed

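Gene expression was measured by poly(A) RNA sequencing (single-end, stranded) in 10 hepatocyte preparations. The authors quantified reads with Salmon 1.10.3 (GRCm39, GENCODE M33). The deposited values are estimated counts of each gene as whole numbers. Although called normalized, they have totals that differ between libraries as raw counts do, and were treated as unscaled. The step from transcripts to genes is not given in the sources used here. The authors' own test was DESeq2 1.42.1 (adjusted p of 0.05, log2 fold change of 1).

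Here, edgeR 4.0.16 (R 4.3.3) was run with TMM scaling on the 13641 genes with a summed count of at least 10, in 1 quasi-likelihood fit of all 4 genotypes, because 2 groups have 2 mice. P-values were adjusted by Benjamini-Hochberg over all genes within each comparison, and intervals are 95%. Genes were placed with GENCODE M39. Nothing says that libraries of a group came from separate isolation days, and replicate libraries differed by 44.8 to 204 times the sampling variance, so none was a duplicate. Replicate numbers did not pair libraries across groups (correlations of deviations from -0.232 to 0.113 for equal numbers). Intervals come from the fit and reflect the spread between mice, and the floor of 3 counts per library covers counting error only. All 10 genes are described. For the other lists, up to 4 genes per list that passed in any comparison were named, by size of change, with Nnt, Nfe2l2, Rela, Keap1 and Slc3a2 besides, of which Slc3a2 was added after its values were seen. The genes and lists were chosen with earlier results of these data known. DESeq2 1.42.0, limma 3.58.1 on log2(normalized count + 1), other scalings and filters, a replicate block, fits of 2 genotypes and leaving out each library were alternatives. The fit was also run on simulated counts with known changes in DKO alone. Its outcome is not reported here, and changes in the single knockouts were not simulated.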

Additional observations from a re-analysis of the deposited data

How the results depend on the processing

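Of the 10 genes, the number lower in Nrf2 KO than in control was 3, and 6 with DESeq2's Wald test (with Gclm, Gsr and Nqo1 in addition). The number in p65 KO was 5, and 3 with equal totals. The number in DKO was 7, and stayed within 1.5 times that under all alternatives that kept every library. Between DKO and p65 KO it was 3, with 6 under equal totals, 4 with DESeq2's Wald test (with Srxn1 in addition, and Ggct as higher) and 0 by edgeR (6 at an unadjusted p under 0.05, a share not counted over all genes) when only the 2 genotypes were fitted. Between DKO and Nrf2 KO it was 1, and 0 with DESeq2 size factors, with upper-quartile scaling, with a filter on a mean of 10 counts and with the replicate block. With 1 library left out, the numbers ranged from 0 to 4 in Nrf2 KO, 1 to 5 in p65 KO, 4 to 7 in DKO, 0 to 3 between DKO and p65 KO, and 0 to 1 between DKO and Nrf2 KO. The number for the difference from additivity was 0 throughout. A comparison with 1 library left in a group assumes that it varies like the other groups.

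With the replicate block, the numbers were 2, 4, 5, 2 and 0 in the order above. The block is a number shared by label only, since libraries with equal numbers did not deviate together. Counts over all genes moved as well: genes called lower ranged from 43 (replicate block) to 229 (DESeq2) in Nrf2 KO against 81, from 355 (equal totals) to 1241 (DESeq2) in p65 KO against 923, from 228 (2 genotypes) to 712 (DESeq2) in DKO against 387, from 63 (2 genotypes) to 1618 (equal totals) between DKO and p65 KO against 281, and from 11 (2 genotypes) to 176 (DESeq2) between DKO and Nrf2 KO against 26. Genes called for the difference from additivity ranged from 53 (replicate block) to 400 (DESeq2) against 64. The cause was not tested.

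Log2 values that changed sign were all far from passing. With equal totals they were Nqo1 between DKO and Nrf2 KO (-0.0581) and the differences from additivity of Gsr (-0.0699) and Txnrd1 (-0.11). With upper-quartile scaling, Srxn1 between DKO and Nrf2 KO went to 0.0023. With the replicate block, Gss in p65 KO went to -0.0837 and Nqo1 between DKO and Nrf2 KO to -0.0685. With 1 library left out, Gss ranged from -0.39 to 0.16 in Nrf2 KO and from -0.15 to 0.24 in p65 KO, the difference from additivity of Nqo1 from -0.30 to 0.19, and Txn1 between DKO and p65 KO from -0.32 to 0.15. Between DKO and Nrf2 KO, the ranges were -0.23 to 0.26 for Nqo1, -0.18 to 0.0498 for Gclm, -0.13 to 0.0341 for Txnrd1 and -0.11 to 0.11 for Srxn1. Of the other single-gene values, 439 of those with every library and 469 of those with 1 library left out kept their direction and their side of the threshold, while 20 and 53 lost significance and 12 and 2 gained it. The smallest groups of 2 mice, and the low counts of Nqo1, Ggct and Slc7a11, limit the precision.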
